A study of Homo sapiens with 6 samples.

Results

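Enzymes that remove superoxide or peroxides were followed in ARPE-19 cells with and without a knockout of POLDIP2. The 10 genes, out of 37902 in the deposited table, were taken by name. They are the superoxide dismutases SOD1, SOD2 and SOD3, catalase (CAT), the glutathione peroxidases GPX1, GPX3, GPX4 and GPX7, and the peroxiredoxins PRDX3 and PRDX5. ARPE-19 is an established human line of retinal pigment epithelial (RPE) cells. For the POLDIP2 KO line, a lentivirus carrying SpCas9 and a guide RNA against POLDIP2 was used, and the cells that survived puromycin were expanded. The WT libraries carry no transduction in their labels, so the loss of POLDIP2 cannot be told apart from transduction, Cas9 and selection. Both lines were grown under regular maintenance and sampled at day 3, with 3 libraries each that the labels call biological replicates.

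Superoxide leaks from the respiratory chain, where oxygen takes up stray electrons, and is also made by oxidases at membranes. Superoxide dismutases convert it to hydrogen peroxide, and catalase, glutathione peroxidases and peroxiredoxins then reduce the peroxide to water. The enzymes are spread over compartments that superoxide crosses poorly, and the RPE is known for a high oxidative load from light, oxygen and the digestion of photoreceptor outer segments. In these data, SOD2, the manganese enzyme of the mitochondrial matrix, was upregulated 4.70-fold in POLDIP2 KO, and of the 9 enzymes with enough reads to be tested it alone passed the thresholds (adjusted p under 0.05 and a fold change over 1.5). GPX7, an enzyme of the endoplasmic reticulum (ER), had 42 reads in the WT libraries together and 0 in the POLDIP2 KO libraries. The other 8 enzymes had fold changes between 0.804 and 1.14, and none of these passed.

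The sequence that separates the glutathione peroxidases is the codon of the catalytic residue. GPX1, GPX3 and GPX4 are selenium enzymes that read the codon TGA as selenocysteine, whereas GPX7 has a cysteine codon at the matching place. Stretches of 33 bases of coding sequence (GRCh38, GENCODE release 44) are shown because GPX7 differs from the other family members here at this codon. Whether the codon has a part in the reads of GPX7 was not tested. Capitals mark the catalytic codon.
GPX1: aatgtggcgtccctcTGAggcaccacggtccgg
GPX3: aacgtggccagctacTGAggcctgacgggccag
GPX4: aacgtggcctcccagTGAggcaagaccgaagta
GPX7: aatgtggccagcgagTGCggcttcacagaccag
The stretch of GPX1 lies at chr3:49358117-49358149 on the minus strand, in exon 1 of 2. That of GPX3 lies at chr5:151025454-151025486 on the plus strand, in exon 2 of 5. That of GPX4 lies at chr19:1105388-1105420 on the plus strand, in exon 3 of 7. That of GPX7 lies at chr1:52606699-52606731 on the plus strand, in exon 2 of 3.

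The 250 bases before the start of the canonical transcript are shown for SOD2 and GPX7, the members that moved most, from the RefSeq table of GRCh38.p14. The table lists 4 starts for SOD2 and 1 for GPX7, and all counts below are for the canonical start alone. Capitals mark the GC box, GGGCGG on either strand, a motif bound by Sp1.
SOD2: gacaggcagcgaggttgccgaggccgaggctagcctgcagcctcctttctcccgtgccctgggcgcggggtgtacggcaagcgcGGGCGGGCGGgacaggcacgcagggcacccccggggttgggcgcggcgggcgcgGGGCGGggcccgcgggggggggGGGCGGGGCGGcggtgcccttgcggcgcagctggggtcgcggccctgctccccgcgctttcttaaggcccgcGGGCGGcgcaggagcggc
GPX7: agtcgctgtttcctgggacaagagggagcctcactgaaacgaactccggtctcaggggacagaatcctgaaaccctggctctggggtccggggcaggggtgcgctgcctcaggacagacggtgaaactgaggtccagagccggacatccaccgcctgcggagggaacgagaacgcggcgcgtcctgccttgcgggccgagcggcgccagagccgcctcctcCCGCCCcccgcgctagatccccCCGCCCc
The SOD2 stretch lies at chr6:159693242-159693491 on the minus strand and holds 6 GC boxes, which overlap in part, and 35 CpG sites. The GPX7 stretch lies at chr1:52602121-52602370 on the plus strand and holds 2 GC boxes and 23 CpG sites. The table held a promoter for 9 of the 10 enzymes, and 8 of these had a GC box, against 42.5% of all 34943 promoters of this length. SOD3 was the one without. The median number of CpG sites was 20 over the 9 enzymes and 11 over all promoters, and the CpG number of SOD2 was above that of 94.2% of promoters. CCAAT, the motif of NF-Y, was found in 4 of the 9 against 32.0% of all promoters, with 5 matches in CAT, 2 each in GPX3 and GPX4, and 1 in SOD3. TGACNNNGC, the core of the antioxidant response element, was in 0 of the 9 and 10.9% of all, and the NF-kB motif was in 0 of the 9 and 9.95% of all. These counts say only whether the letters stand in this window.

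The deposited values are read counts divided by a size factor for each library (normalised counts). The libraries held 31532797 to 45795509 recovered reads, and 3 reads, taken as the floor, were worth 2.44 to 3.69 normalised counts. POLDIP2, as a check of the labels, had 4515 ± 516 normalised counts in WT and 1151 ± 92.8 in the knockout (n = 3 libraries per line, ± SD), with every library on the side of its label (limma adjusted p = 0.00961). The RPE markers summed to 34771 to 38440 normalised counts in WT and 33170 to 40954 in POLDIP2 KO, most of which was KRT18, a keratin. Of these 8 markers, RPE65, the isomerase of the visual cycle, was at 0 in every library, and 0 of the 6 tested were called by limma. The sum of the other markers, for leukocytes (PTPRC), endothelium (PECAM1, CDH5) and fibroblasts (COL1A1), was 323 to 2150 in WT and 770.1 to 6964 in POLDIP2 KO, nearly all of it COL1A1. Without COL1A1 it was 2.83 to 4.18 in WT and 8.61 to 10.6 in POLDIP2 KO. COL1A1 was higher in POLDIP2 KO in each numbered pair, by 1.70, 1.24 and 1.53 on the log2 scale. Its limma adjusted p was 0.981 without pairs and 0.0436 when blocked by replicate number (log2 fold change 1.49, standard error 0.122). The part of these markers in the results was not tested. In RNA from whole cultures, a change in every cell and a change in the number of cells that express a gene cannot be told apart.

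SOD2 (ENSG00000112096, chromosome 6, 159669069 to 159762529, minus strand) had 4619, 5447 and 5949 normalised counts in WT and 29268, 23644 and 22446 in POLDIP2 KO, here and below in the order of the replicate numbers 1, 2 and 3. The lowest POLDIP2 KO library was far above the highest WT library. The WT mean was 5338 ± 672 and the POLDIP2 KO mean 25119 ± 3643 (SD, n = 3 libraries per line), and the log2 fold change was 2.23 (95% confidence interval 1.88 to 2.58, limma adjusted p = 0.00961). Called higher in POLDIP2 KO were 1 of the 9 tested enzymes and 0.0817% of the 14684 genes tested. Called lower were 0 of the 9 and 0.0885% of all genes, and at an unadjusted p under 0.05 the enzymes lower were also 0. Between libraries of the same number, the difference was 2.66, 2.12 and 1.92 on the log2 scale for replicates 1, 2 and 3. WT replicate 1 was the lowest of its line and POLDIP2 KO replicate 1 the highest of its own, so the largest difference came from the replicate 1 pair. In edgeR on the recovered reads, blocked by replicate number, the adjusted p value was 0.0597. The limma adjusted p value rose to 0.0558 without WT replicate 2, 0.0639 without WT replicate 3, 0.0886 without POLDIP2 KO replicate 2 and 0.0820 without POLDIP2 KO replicate 3, while the log2 fold change stayed between 2.12 and 2.31.

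**Figure D1:**
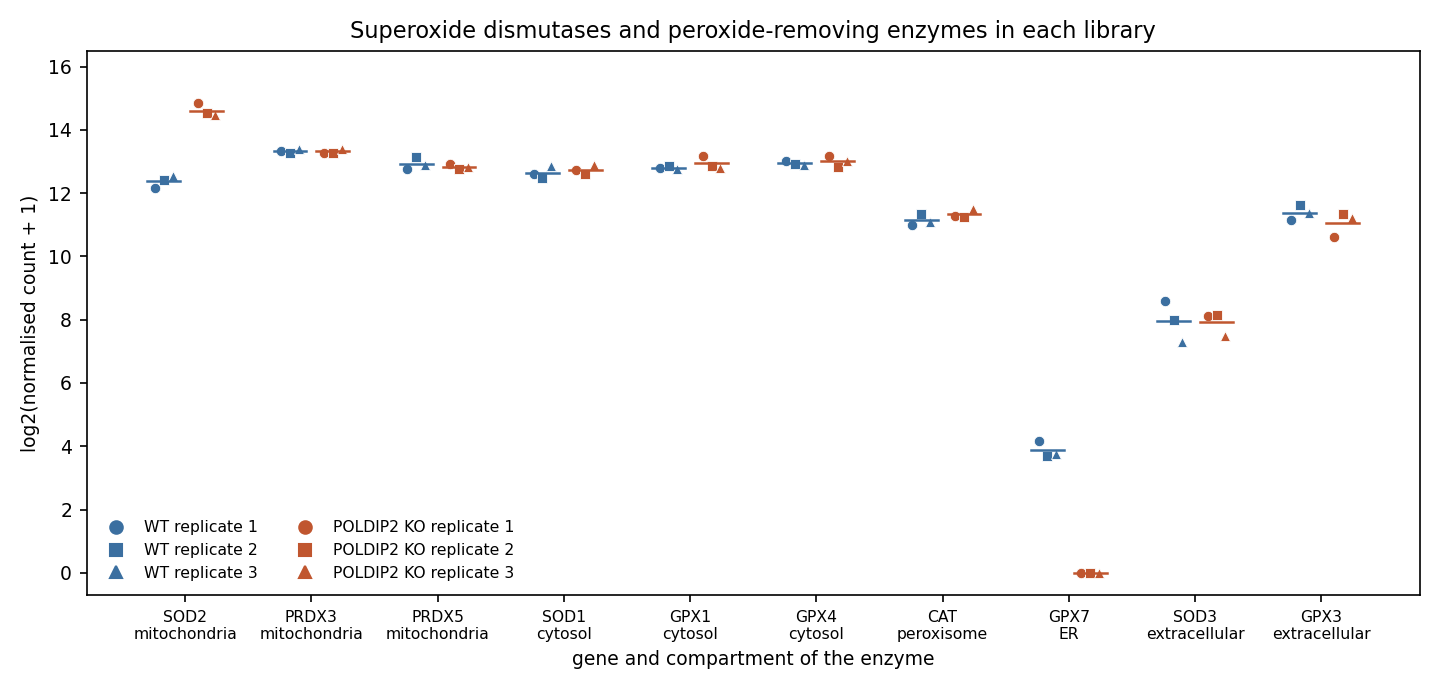
Normalised counts of the 10 enzymes, as log2(normalised count + 1), with 1 point per library, colours for the lines, symbols for the replicate numbers and bars for the mean of these log values over 3 libraries. SOD2 stands higher in all 3 POLDIP2 KO libraries and GPX7 drops to 0, while the points of the other 8 enzymes overlap between the lines.

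The SOD2 gene overlaps genes on the opposite strand, upstream of its canonical start, whose promoter stretch lies at 159693242 to 159693491. WTAP begins at 159725585 and ACAT2 at 159762045, so only SOD2 transcripts with starts further upstream reach them. The libraries were made with a stranded kit. The strand setting used in counting is not given in the sources used here. WTAP, an adaptor of RNA methylation, overlaps SOD2 on the plus strand and had 3134, 3342 and 3347 normalised counts in WT and 3597, 3934 and 3793 in POLDIP2 KO (log2 fold change 0.20, limma adjusted p = 0.819). ACAT2, a thiolase of the cytosol, also overlaps on the plus strand and had 4968, 4673 and 4355 in WT and 3047, 2052 and 2419 in POLDIP2 KO (log2 fold change -0.91, limma adjusted p = 0.122). The lines did not overlap for either gene, and of all tested genes 5.46% lay higher and 5.44% lower without overlap. For the next tested genes on either side, FNDC1, RSPH3, TCP1 and MRPL18, the lines overlapped. Their log2 fold changes ran from -0.34 to -0.02, all with a limma adjusted p of 0.9998. The part of reads from overlapping genes in the SOD2 values was not tested. Of the 11 pseudogenes of these enzymes in the table, 8 were at 0 in every library, and GPX1P1, the highest, had 0 to 35.7 normalised counts.

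PRDX3 and PRDX5, the peroxiredoxins of the mitochondrial matrix, reduce the hydrogen peroxide that SOD2 makes. PRDX3, which works with thioredoxin 2, had 10411, 9874 and 10776 normalised counts in WT and 9867, 9942 and 10802 in POLDIP2 KO. The lines overlapped, with a log2 fold change of -0.02 and a 95% confidence interval of -0.25 to 0.20. PRDX5, also found in peroxisomes and cytosol, had 6889, 9127 and 7567 in WT and 7743, 6931 and 7209 in POLDIP2 KO. Its lines overlapped as well, with a log2 fold change of -0.10 (-0.40 to 0.20). Both intervals exclude a change of 1.5-fold in either direction, and limma gave an adjusted p of 0.9998 to both.

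SOD2 was then set against PRDX3 and the cytosolic SOD1 within each library, which needs no scaling between libraries. The ratio of SOD2 to PRDX3 was 0.444, 0.552 and 0.552 in WT and 2.97, 2.38 and 2.08 in POLDIP2 KO. The ratio of SOD2 to SOD1 was 0.744, 0.946 and 0.806 in WT and 4.28, 3.78 and 2.96 in POLDIP2 KO. Both ratios lay below 1 in every WT library and above 2 in every POLDIP2 KO library. These ratios are of reads not divided by transcript length. A value above 1 therefore does not mean more SOD2 transcripts than PRDX3 or SOD1 transcripts, and only the change between the lines can be read. The difference of the mean log2 ratio was 2.25 for PRDX3 and 2.13 for SOD1, each with an exact two-sided permutation p of 0.1, the smallest that 3 libraries against 3 allow.

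**Figure D2:**
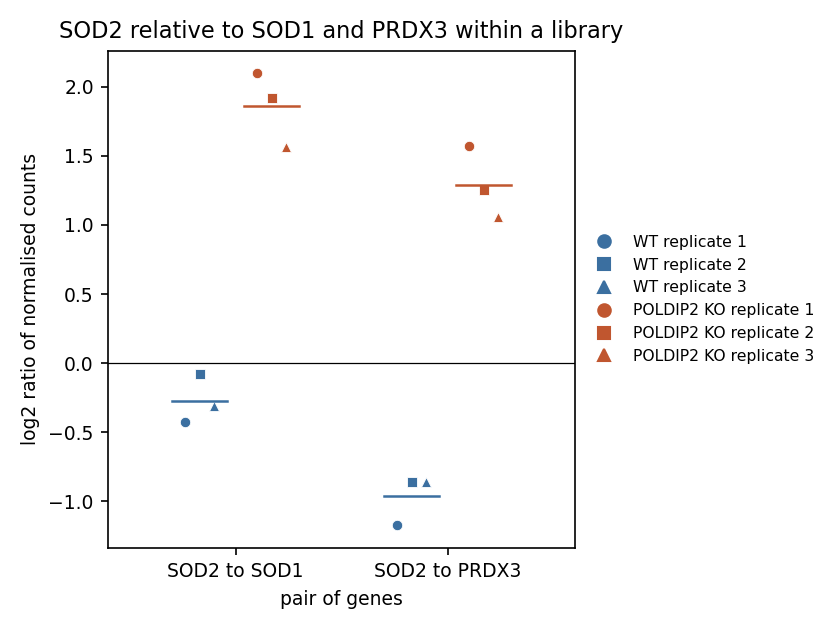
Ratio of SOD2 to SOD1 and to PRDX3 in each library on a log2 scale, with bars for the mean of 3 libraries. The WT points lie below 0 and the POLDIP2 KO points between 1.06 and 2.10. The counts are not divided by transcript length, so 0 does not mark equal numbers of transcripts.

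Summed by role, the superoxide dismutases took 11205, 11455 and 13486 normalised counts in WT and 36382, 30176 and 30208 in POLDIP2 KO. The 7 peroxide-removing enzymes summed to 36994, 39947 and 37800 in WT and 40123, 36630 and 38602 in POLDIP2 KO, which overlap. SOD2 made up 41.2% to 47.6% of the superoxide dismutase reads in WT and 74.3% to 80.4% in POLDIP2 KO. These sums are of reads and not of molecules, since they are not divided by length.

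In the cytosol, SOD1, the copper and zinc superoxide dismutase, had 6206, 5755 and 7379 normalised counts in WT and 6840, 6250 and 7583 in POLDIP2 KO. It was higher in POLDIP2 KO in each numbered pair but the lines overlapped, and the log2 fold change was 0.10 (95% confidence interval -0.21 to 0.41). GPX1, which reduces hydrogen peroxide with glutathione in cytosol and mitochondria, had 7087, 7427 and 6976 in WT and 9251, 7441 and 7108 in POLDIP2 KO, with a log2 fold change of 0.14 (-0.15 to 0.43). POLDIP2 KO replicate 1 stood apart from the other 5 libraries, and in the replicate 2 and 3 pairs the difference was 0.003 and 0.03 on the log2 scale. GPX4, which repairs lipid peroxides in membranes and guards against ferroptosis, had 8270, 7761 and 7648 in WT and 9217, 7278 and 8197 in POLDIP2 KO, with a log2 fold change of 0.05 (-0.22 to 0.33). CAT, which breaks down hydrogen peroxide in peroxisomes, had 2058, 2620 and 2198 in WT and 2487, 2448 and 2898 in POLDIP2 KO, with a log2 fold change of 0.19 (-0.12 to 0.50). The intervals of all 4 exclude a 1.5-fold change, and limma gave an adjusted p of 0.9998 to each.

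SOD3 and GPX3 are secreted. SOD3, which binds to heparan sulphate outside the cell, had 381, 253 and 158 normalised counts in WT and 274, 282 and 179 in POLDIP2 KO. The libraries of WT alone spread more than 2-fold, and the log2 fold change was -0.04 (95% confidence interval -0.88 to 0.79), so levels from 0.545 to 1.73 of WT lay within it. GPX3, the plasma glutathione peroxidase, had 2263, 3126 and 2623 in WT and 1557, 2591 and 2388 in POLDIP2 KO. It was lower in POLDIP2 KO in each numbered pair, by 0.54, 0.27 and 0.14 on the log2 scale, although the lines overlapped. The log2 fold change was -0.31 (-0.83 to 0.20, limma adjusted p = 0.9998), and it was -0.090 without POLDIP2 KO replicate 1, -0.19 without WT replicate 2 and -0.46 without POLDIP2 KO replicate 2. Blocked by replicate number, the interval narrowed to -0.59 to -0.04, with an unadjusted limma p of 0.0320 and an adjusted p of 0.379.

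GPX7, a peroxidase of the ER that takes part in oxidative protein folding, was the least abundant of the 10. The WT libraries held 18, 12 and 12 of its reads (17.0, 12.0 and 12.5 normalised counts) and the POLDIP2 KO libraries held 0, 0 and 0. The WT mean was 13.9 normalised counts, and against a floor of 3 reads per library GPX7 was at least 4.56-fold lower in POLDIP2 KO. With a mean of 6.93 over the 6 libraries it lay under the minimum of 10 and was not in the main test. Without that filter the limma adjusted p value was 0.0277, in a fit that called 0.0797% of 21339 genes lower, and DESeq2 on the recovered reads gave 0.0117, in a fit that called 1.27% of the same genes in either direction. The call was lost when blocked by replicate number (adjusted p = 0.0605 in limma and 0.0945 in DESeq2) and with any 1 library left out (limma adjusted p = 0.103 to 0.162). The tested genes next to GPX7 on chromosome 1, TUT4, PRPF38A, COA7 and ZYG11B, had log2 fold changes from -0.03 to 0.05, all with a limma adjusted p of 0.9998.

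**Figure D3:**
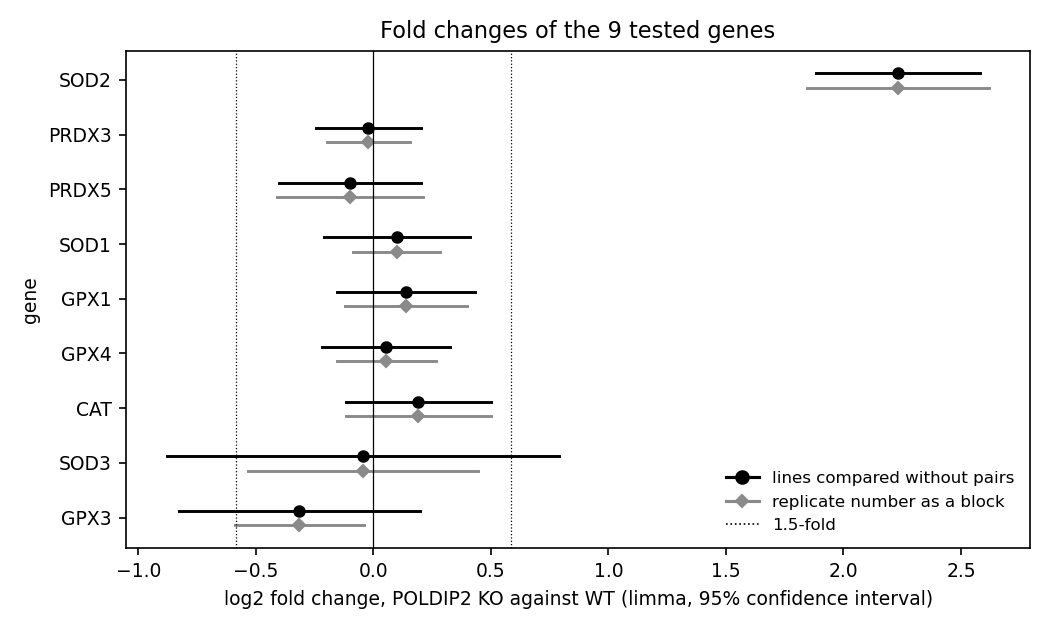
Log2 fold changes of the 9 tested enzymes with 95% confidence intervals from limma, without pairs in black and blocked by replicate number in grey, and dotted lines at 1.5-fold. The interval of SOD2 lies above 1.5-fold, and the black intervals of the other 8 include 0.

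Read without a test, all 3 POLDIP2 KO libraries lay above all 3 WT libraries for 1 of the 9 tested enzymes, SOD2, against 5.46% of all tested genes, and below them for 0 of the 9, against 5.44%. The median log2 fold change of the 9 was 0.05 and that of all tested genes -0.0003.

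Levels of different enzymes can be compared only per length of transcript. In normalised counts per kilobase of the canonical transcript, GPX4 (9275 ± 389), PRDX5 (9140 ± 1334), GPX1 (7968 ± 261), SOD1 (7203 ± 936) and PRDX3 (6667 ± 292) led in WT (mean ± SD, n = 3 libraries), and each overlapped with its neighbour in this order. GPX3 (1666 ± 271) and CAT (1000.5 ± 128) followed, and SOD3 (186 ± 79.0) and GPX7 (11.3 ± 2.23) were lowest, with no overlap between neighbours. The place of SOD2 depends on the transcript used. Its canonical transcript is 14167 bases long, most of it untranslated, and gives 377 ± 47.4 per kilobase in WT and 1773 ± 257 in POLDIP2 KO, place 8 and place 6 of the 10. The median length of its 12 coding transcripts is 953.5 bases and gives 5599 ± 705 in WT and 26344 ± 3820 in POLDIP2 KO, place 6 and place 1 when every gene is taken at its median coding length. The table does not say which transcripts the reads came from. By mean normalised count, not per length, SOD2 moved from place 1344 to place 192 of the 37902 genes.

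The enzymes depend on other genes for electrons, metals and selenium, which were followed in 7 lists. Of 45 listed genes, 43 were matched to the table and 40 were tested. In POLDIP2 KO, 27 of the 40 were higher and 13 lower, with a median log2 fold change of 0.06, and 0 were called by limma, edgeR or DESeq2. Of all 14684 tested genes, 7334 were higher and 7350 lower. Limma called 0.0817% of them higher and 0.0885% lower, edgeR called 17 genes, and DESeq2 called 1.27% of 21339 genes. At these shares, 0 of 40 says little on the related genes. At an unadjusted p under 0.05, 0 passed by limma and by edgeR and 1 by DESeq2, against 6.48% of all tested genes by limma. Blocked by replicate number, 4 of the 40 passed unadjusted in each of the 3 tools, against 11.1% of all genes by limma, and the lowest adjusted p was 0.288 in limma, 0.314 in edgeR and 0.104 in DESeq2. All POLDIP2 KO libraries lay above all WT libraries for 2 of the 40 and below them for 1. The shares over all tested genes were 5.46% and 5.44%. SESN2 and PEX5 were not analysed here.

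Among the other peroxiredoxins and glutathione peroxidases, all 5 tested genes were on the higher side, from 0.02 for GPX8 in the ER to 0.23 for PRDX4, the peroxiredoxin of the ER, which did not overlap between the lines (limma adjusted p = 0.830). GPX2, GPX5 and GPX6 were at 0 in every library. All 8 genes of the thioredoxin system were on the higher side, from 0.02 for TXN2, the mitochondrial thioredoxin, to 0.45 for TXNIP, the inhibitor of thioredoxin. Of the glutathione genes, 4 were higher and 4 lower, from -0.24 for SLC25A39, the carrier that brings glutathione into mitochondria, to 0.20 for the glutaredoxin GLRX. The NADPH genes ran from -0.09 for IDH1 to 0.20 for ME1, with 4 of 5 on the higher side. None of these values passed the test.

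Of the genes that transport or deliver the metals of superoxide dismutases, into or out of the cell, 3 were higher and 3 lower. SLC39A8, an importer of manganese and zinc, had the lowest value, -0.40, with no overlap between the lines (limma adjusted p = 0.802), and the copper transporter ATP7A the highest, 0.20. Of the 6 genes for selenocysteine, 2 were higher and 4 lower, from -0.85 for SEPSECS, which completes selenocysteine on its tRNA, to 0.34 for TRNAU1AP, a partner of that tRNA. SEPSECS had 114, 232 and 183 normalised counts in WT and 114, 36.6 and 192 in POLDIP2 KO. Its lines overlapped, and the low value came from POLDIP2 KO replicate 2. With 1 library left out, its log2 fold change ran from -1.37 to -0.19. PSTK, the kinase that acts before SEPSECS, was at 0.25 with no overlap between the lines (limma adjusted p = 0.9998). The peroxisomal list had MPV17, an inner membrane protein of mitochondria, at -0.09 and the import receptor PEX7 at 0.23.

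The replicate number gave another contrast, since libraries numbered 1 in the 2 lines deviated together (correlation 0.315). The numbers 2 and 3 were matched less clearly, at 0.137 and 0.129. WT replicate 3 and POLDIP2 KO replicate 2, of unlike number, correlated at 0.147. In an F test of the number in limma, with the line as a covariate, 0 of the 9 tested enzymes passed at an adjusted p under 0.05, against 0.913% of all tested genes, and edgeR also called 0 of them. At an unadjusted p under 0.05, 3 passed, namely GPX3 (adjusted p = 0.167), SOD3 (0.196) and SOD1 (0.237), against 18.9% of all tested genes. For SOD3, replicate 3 was the lowest in both lines, for SOD1 replicate 3 was the highest in both, and for GPX3 replicate 1 was the lowest in both. SOD2 was at the other end, with an F of 0.0188 and replicate 1 lowest in WT and highest in POLDIP2 KO.

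Of the 40 related genes, 6 passed the same test, 3 in the thioredoxin list and 3 in the glutathione list, and all 6 were lowest in replicate 1 of both lines. TXNRD1, the cytosolic thioredoxin reductase, had 43497, 120531 and 123288 normalised counts in WT and 55084, 128057 and 138593 in POLDIP2 KO (limma F test, adjusted p = 0.0235). Its mean of replicates 2 and 3 was 2.80 times replicate 1 in WT and 2.42 times in POLDIP2 KO. GCLM, the modifier subunit of glutathione synthesis, had 1669, 4066 and 4789 in WT and 1853, 4321 and 4618 in POLDIP2 KO (adjusted p = 0.0262). The other 4 were glutathione reductase (GSR, 0.0360), sulfiredoxin (SRXN1, 0.0360), thioredoxin (TXN, 0.0377) and the cystine importer SLC7A11 (0.04999). Over the 6 genes, the mean of replicates 2 and 3 was 1.97 to 3.34 times replicate 1 in WT and 1.94 to 2.43 times in POLDIP2 KO, while 0 of the 6 were called between the lines by limma, edgeR or DESeq2. Without a trend in the prior variance 0 of the 6 passed the replicate test, and in edgeR 4 passed. COL1A1 moved with the number in the other direction, with 2147, 320 and 677 in WT and 6956, 760 and 1953 in POLDIP2 KO (adjusted p = 0.0208), and its part was not tested. What the number stands for, other than a biological replicate, is not given in the labels.

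**Figure D4:**
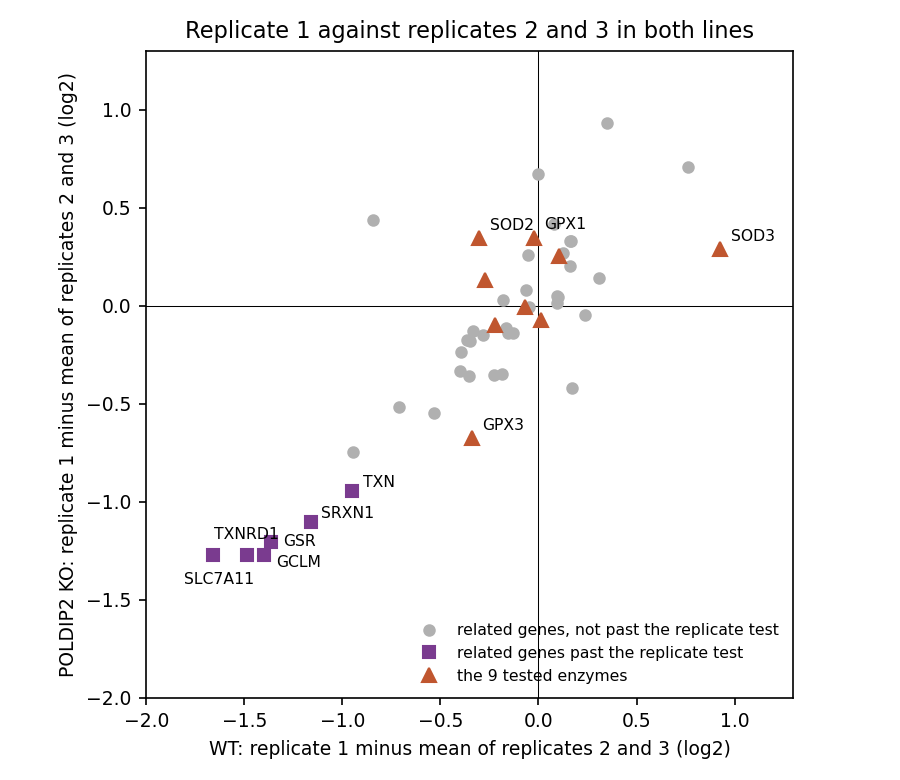
Difference between replicate 1 and the mean of replicates 2 and 3, on the log2 scale, in WT (horizontal) and POLDIP2 KO (vertical), for the 9 tested enzymes and the 40 related genes. The 6 related genes past the replicate test lie between -1.66 and -0.95 in WT and between -1.27 and -0.95 in POLDIP2 KO, below all 9 enzymes.

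The genes most like SOD2 over the 6 libraries, by Pearson r of log2(normalised count + 1) among the tested genes, were CCL2 (r = 0.997), CTSS (0.995), TNFRSF9 (0.993), TNFAIP3 (0.991) and CYB5A (0.989). The libraries form 2 lines, so r mostly follows the difference between them, and it is given as a description. CCL2, a chemokine, had 1375, 1734 and 1935 normalised counts in WT and 9014, 7593 and 6021 in POLDIP2 KO. As for SOD2, replicate 1 was lowest in WT and highest in POLDIP2 KO. TNFAIP3, a ubiquitin-editing inhibitor of NF-kB, had 133, 219 and 198 in WT and 1040, 891 and 696 in POLDIP2 KO. CTSS, a lysosomal protease, was at 0 in every WT library and had 44.3, 28.5 and 30.8 in POLDIP2 KO. TNFRSF9, a receptor of the TNF family, had 96.4, 98.3 and 106.5 in WT and 770.1, 485 and 432 in POLDIP2 KO. CYB5A, an electron carrier of the ER membrane, had 861, 908 and 879 in WT and 1345, 1201 and 1195 in POLDIP2 KO and was not called by limma (adjusted p = 0.231).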

How the data were processed

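RNA of WT ARPE-19 and POLDIP2 KO cells (3 libraries each, day 3) was analysed from 1 table. The deposited signal values are read counts: the authors ran Salmon 1.8, collected genes of GRCh38 through tximport and divided by DESeq2 1.34.0 size factors. The annotation release is not given in the sources used here. The table holds 37902 genes (16563 at 0 throughout), 34152 named from GENCODE release 44 and 14 from a supplementary table; 0 columns were left out. SOD2 was taken by its identifier in the table. Its coordinates, transcripts and lengths are those of the SOD2 record of GENCODE release 44, which has another identifier (ENSG00000291237). Whole reads were recovered by dividing each column by its smallest value above 0, and 100% of values were whole within 0.001. The step was near 1 in replicate 2 of WT (1.003) and replicate 3 of POLDIP2 KO (0.993). The largest distance from a whole number was 8.51e-05 in the first and 0.000221 in the second.

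The main test was limma 3.58.1 (R 4.3.3, eBayes with trend, prior degrees of freedom 3.02) on log2(normalised count + 1) for the 14684 genes whose mean reached 10, with Benjamini-Hochberg adjustment over all of them. A pseudocount of 1 understates the change of low genes. Genes were called at an adjusted p under 0.05 and a fold change over 1.5. Ratios were compared by an exact permutation test (scipy 1.17.1). edgeR 4.0.16 and DESeq2 1.42.0 on the recovered reads were alternatives, and 5035 genes had no adjusted p in DESeq2. The steps were tested on simulated data in which all genes had the same dispersion and changed genes had a mean of at least 50. The line effect was simulated without a replicate effect. The simulation therefore does not cover GPX7 or calls between the lines under a replicate effect. Same-numbered libraries of the 2 lines, centred within each line, correlated at 0.315, 0.137 and 0.129, each over the limit of 0.1. Libraries of unlike number correlated at -0.259 to 0.147. The numbers were used as a block in alternative fits and tested in the replicate test, while the main test had no block. P values measure the spread between these libraries. Recovered reads are without molecular identifiers, so floors cover counting error only.

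The members and lists were chosen with earlier results of these data known. Named genes are the members, POLDIP2, the called and the most extreme genes of each list, and the 5 genes most like SOD2; neighbours, pseudogenes and list genes without overlap were added after values were seen. Other alternatives were pseudocounts (0.5, 5), a mean of 50 or no minimum, recentring, quantile normalisation, eBayes without trend or robust, and leaving out each library. Lengths, exons and coordinates are from GENCODE release 44, promoters from RefSeq. Python 3.11.15 with matplotlib 3.10.9, pandas 2.3.3 and numpy 2.4.6 drew figures and tables. Some genes of the lists are not reported here. Protein and superoxide measurements were not analysed here.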

Additional observations from a re-analysis of the deposited data

How the results depend on the processing

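Of 152 values for the 8 tested enzymes other than SOD2 (19 alternatives each), 146 kept the direction and stayed past no threshold, with a lowest adjusted p of 0.301. The 6 that changed direction came from leaving out a library. The log2 fold change became 0.27 for SOD3 without WT replicate 1 (0.17 without POLDIP2 KO replicate 3), -0.030 for GPX4 without POLDIP2 KO replicate 1, 0.0080 for PRDX3 without WT replicate 3 (0.0023 without POLDIP2 KO replicate 1), and 0.013 for PRDX5 without WT replicate 2. With 1 library left out, the range was -0.37 to 0.27 for SOD3, -0.030 to 0.14 for GPX4, -0.063 to 0.0080 for PRDX3 and -0.19 to 0.013 for PRDX5, and, with no change of direction, -0.46 to -0.090 for GPX3, 0.022 to 0.20 for SOD1, 0.022 to 0.21 for GPX1 and 0.11 to 0.29 for CAT. SOD2 kept a log2 fold change of 2.18 to 2.23 where all libraries were kept and lost its call with the replicate block in edgeR (log2 fold change 2.23, adjusted p = 0.0597). Without 1 library its log2 fold change was 2.12 to 2.31. The count of enzymes called was 1, but 0 in edgeR with the replicate block, 2 (with GPX7) without the filter and in DESeq2, and 0 to 1 without 1 library. GPX7 had a log2 fold change of -3.88 in limma without the filter and -6.22 in DESeq2 with the replicate block.

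Over all genes, 25 were called in the main test, 30 with the replicate block in limma, 17 in edgeR, 5 in edgeR with the replicate block, 270 in DESeq2, 394 in DESeq2 with the replicate block, 16 at a mean of at least 50, and 0 to 5 without 1 library. The 134 genes with an effect of the replicate number became 11 without a trend and 71 in edgeR, and the 6 related genes among them became 0 and 4. The cause of these differences was not tested. SOD2 per kilobase was 377 in WT and 1773 in POLDIP2 KO with the canonical transcript and 5599 and 26344 with the median coding length, which follows from the length alone. The ratios of SOD2 without 1 library moved between 2.01 and 2.28 for SOD1 and between 2.12 and 2.37 for PRDX3 on the log2 scale. With the replicate block no other call on the tested enzymes changed.

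With 3 libraries in a line, the smallest exact p is 0.1, and calls rest on the variance shared across genes. GPX7 rests on 12 to 18 reads per WT library. The lines differ in more than POLDIP2, since the transduced line was selected and expanded. RNA levels say nothing on enzyme amount or activity. Where exons of genes on opposite strands overlap, their reads are apart only if counting used the strand.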
